A study of Mus musculus with 6 samples.

Results

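Mstn, Fst, Gdf11, Inhba, Tgfb1, Tgfb2, Tgfb3, Bmp4, Acvr2b and Tgfbr1 are genes of the transforming growth factor-beta (TGF-beta) family of signals, and their expression was followed in differentiating C2C12 cells with and without forced expression of MyoD. They are taken by gene symbol from a list drawn up with earlier results of these data known, and are 10 of the 19505 genes measured. Each is read by a single probe set. The C2C12 line, derived from mouse myoblasts, stops dividing in low serum and forms multinucleated myotubes. On day 3 of differentiation in 2% horse serum, RNA was hybridized to 6 Clariom S arrays, with 2 arrays in each of 3 groups.

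The first group, called non-transduced, held naïve C2C12 cells without lentivirus that were given doxycycline. Cells of the group called uninduced carried the MyoD lentivirus and received no doxycycline. The MyoD + Dox group consisted of the transduced cells with doxycycline, which switches on the viral MyoD. In the methods, the virus was built on the pLVX-TetON system and transduced cells were selected with blasticidin. MyoD + Dox therefore differed from uninduced cells in the drug as well as in MyoD, and from non-transduced cells in the virus and the selection as well. Uninduced and non-transduced cells differed in virus, selection and doxycycline together, so these effects cannot be told apart in that comparison. Cells with an empty virus were not analysed here. Separate cultures are not named for the 2 arrays of any group, so the p-values refer to a spread between samples that may be purely technical. With 2 arrays against 2, an exact permutation test of a single gene cannot go below p = 0.333 (two-sided).

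Ligands of the TGF-beta family are secreted dimers that bring together type II and type I receptor kinases, and the type I receptor then phosphorylates Smad proteins that enter the nucleus. Myostatin, Gdf11, the activins and the TGF-betas act mainly through Smad2 and Smad3, and the bone morphogenetic proteins (BMPs) through Smad1, Smad5 and Smad9. In skeletal muscle, myostatin is known as a brake on growth, follistatin binds and blocks myostatin and activins, and TGF-beta and BMP ligands are known to hold back the differentiation of cultured myoblasts.

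Myod1, the gene carried by the virus, was examined first. Its log2 signal was 8.72 and 10.68 on the non-transduced arrays, 8.996 and 7.91 on the uninduced arrays and 11.51 and 12.54 on the MyoD + Dox arrays. The MyoD + Dox arrays were above all others, by 3.57 on the log2 scale over uninduced cells (standard error 0.75, limma adjusted p = 0.670, n = 2 arrays a group). It is not known from the sources whether this probe set detects viral RNA, endogenous RNA or both. Within groups, the non-transduced arrays were least alike: 15% of all genes differed at least 2-fold between them, against 3.79% within the uninduced pair and 3.02% within the MyoD + Dox pair. Of 15 genes of differentiated muscle, 15 were above background on all 6 arrays and 15 differed at least 2-fold between the non-transduced arrays. Their mean log2 signal was 12.76 and 15.28 in non-transduced, 12.73 and 10.47 in uninduced cells and 14.47 and 14.70 with MyoD + Dox. Of the markers of other lineages, 0 of 5 measured for osteoblasts, 0 of 5 for adipocytes, 0 of 4 for macrophages and 0 of 4 for endothelium were above background on any array, 1 or 2 of 4 neuronal genes were above it, and 3 of 5 myoblast genes were.

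**Figure D1:**
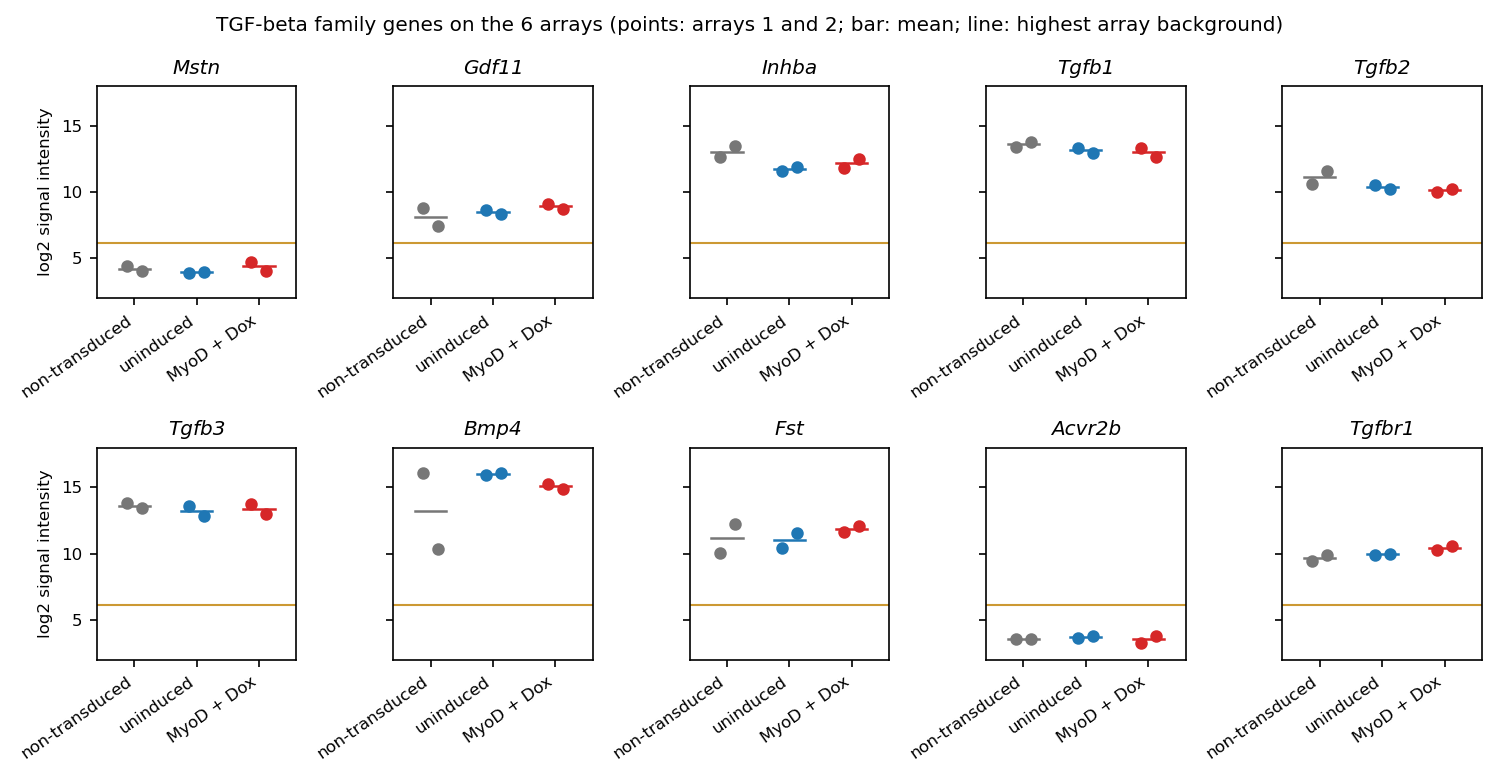
The log2 signal intensity of the 10 genes is plotted for each of the 6 arrays by group, with the group mean as a bar and the highest array background, a log2 signal of 6.15, as a horizontal line. Mstn and Acvr2b lay below the line on all 6 arrays, and Bmp4 had the widest gap between the 2 non-transduced arrays.

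Mstn (Entrez 17700) encodes myostatin itself. Its log2 signal was 4.40 and 4.05 in non-transduced, 3.88 and 4.01 in uninduced cells and 4.73 and 4.07 with MyoD + Dox. Array backgrounds, each set at the 90th percentile over 23 background probe sets, lay between 6.01 and 6.15. All 6 Mstn values were thus not above background, only a bound exists for its level in each group, and no difference is given for it. The label of a myostatin signal rests on the partners and relatives of the ligand here, since the ligand's own transcript was not detectable on these arrays.

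The promoter of Mstn is shown because it held more E-boxes than that of any other of the 8 matched genes. An E-box, written CANNTG, is the motif that MyoD and its relatives bind. Promoters came from RefSeq (GRCm38.p6), as the 250 bases before a gene's start, read 5′ to 3′ on the gene's strand with E-boxes in capitals and both strands covered because the motif reads CANNTG on each. All of the genes but Fst and Tgfb3 matched, which is 8 of 10, with 9 promoters. Of these, 5 of 9 held an E-box, while 66.2% of 32851 RefSeq promoter windows of that length did. The 4 E-boxes of Mstn start 229, 174, 52 and 19 bases before the gene's start, and 12.2% of all windows held 3 or more. The Mstn window lies at chr1:53061390-53061639 on the plus strand.
Mstn: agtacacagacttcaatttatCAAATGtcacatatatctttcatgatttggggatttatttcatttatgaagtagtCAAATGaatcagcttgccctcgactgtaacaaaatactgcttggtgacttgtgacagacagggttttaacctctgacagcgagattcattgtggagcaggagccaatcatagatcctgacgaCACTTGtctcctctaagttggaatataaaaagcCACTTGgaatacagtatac
A match describes letters in a window and is not a measured binding site.

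Gdf11 (Entrez 14561), the closest relative of myostatin, was measured above background. Gdf11 signals (log2) were 8.82 and 7.43 in non-transduced, 8.65 and 8.36 in uninduced cells and 9.09 and 8.76 with MyoD + Dox. Both MyoD + Dox arrays were above both uninduced arrays, and the lowest of the 6 values was that of the second non-transduced array. The mean was higher by 0.42 on the log2 scale in MyoD + Dox than in uninduced cells (standard error 0.47, limma adjusted p = 0.811, n = 2). Against non-transduced cells the difference was 0.80 (standard error 0.47, adjusted p = 0.99998 from limma, n = 2), with overlapping groups. It ran from 0.10 without the second non-transduced array to 1.49 without the first, and the difference from uninduced cells ran from 0.25 to 0.59 over single arrays left out.

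Inhba (Entrez 16323) encodes the subunit of activin A, a ligand that, like myostatin, is blocked by follistatin. Log2 signals of Inhba were 12.62 and 13.45 in non-transduced, 11.56 and 11.86 in uninduced cells and 11.84 and 12.52 with MyoD + Dox. Both non-transduced arrays were above the 4 arrays of transduced cells. Uninduced cells were 2.50-fold below non-transduced cells, a log2 difference of -1.32 (standard error 0.37, unadjusted p = 0.013, limma adjusted p = 0.637, n = 2). Over single arrays left out that difference ran from -1.73, without the first non-transduced array, to -0.91. A lone array has no spread of its own, so a p-value from such a fit rests on the spread of the other groups. None is given here for Inhba. MyoD + Dox cells differed from non-transduced cells by -0.86 (standard error 0.37, limma adjusted p = 0.99998) and from uninduced cells, whose values overlapped with theirs, by 0.46 (standard error 0.37, limma adjusted p = 0.746). The former ran from -1.27 without the first non-transduced array to -0.44 without the second, and the latter from 0.13 without the second MyoD + Dox array to 0.80 without the first.

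The genes of the 3 TGF-beta isoforms, secreted in a latent form and known for matrix production and for restraint of myoblast differentiation, had small differences with induction. Tgfb1 (Entrez 21803) read 13.43 and 13.76 in non-transduced, 13.36 and 12.91 in uninduced cells and 13.31 and 12.66 with MyoD + Dox. Tgfb3 (Entrez 21809) read 13.80 and 13.44 in non-transduced, 13.60 and 12.82 in uninduced cells and 13.74 and 13.02 with MyoD + Dox. In both genes the values of MyoD + Dox and uninduced cells overlapped, with differences of -0.15 for Tgfb1 (standard error 0.31) and 0.17 for Tgfb3 (standard error 0.38). Limma's intervals (95%) ran from -0.92 to 0.62 for Tgfb1 and from -0.76 to 1.10 for Tgfb3, so differences of that size are not excluded. The sign of either difference turned when single arrays were left out. Against non-transduced cells, Tgfb1 was lower without overlap in MyoD + Dox cells, with a difference of -0.61 (standard error 0.31, limma adjusted p = 0.99998, from -0.94 to -0.28 over single arrays left out), and in uninduced cells, with one of -0.46 (standard error 0.31, limma adjusted p = 0.657, from -0.68 to -0.23). Tgfb3 overlapped in both of these comparisons.

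Tgfb2 (Entrez 21808) lay lower in the transduced groups as well, by more than Tgfb1. Log2 values of Tgfb2 were 10.63 and 11.62 in non-transduced, 10.53 and 10.25 in uninduced cells and 10.04 and 10.24 with MyoD + Dox. Both arrays of each transduced group lay below both non-transduced arrays, and both MyoD + Dox arrays lay just below the lower uninduced array. Against non-transduced cells the difference was -0.98 in MyoD + Dox (standard error 0.36, unadjusted p = 0.035, limma adjusted p = 0.99998, n = 2) and -0.74 in uninduced cells (standard error 0.36, limma adjusted p = 0.637, n = 2). The 2 comparisons share the non-transduced arrays, which differed 1.99-fold from each other in Tgfb2. Without the first of them the differences were -1.48 and -1.23, and without the second they were -0.49 and -0.24. The size of both differences thus rested on which non-transduced array was kept.

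Bmp4 (Entrez 12159), a BMP known to turn C2C12 cells from the muscle towards the bone lineage, had the widest range of the 10 genes. Signals of Bmp4 (log2) were 16.06 and 10.33 in non-transduced, 15.89 and 16.08 in uninduced cells and 15.26 and 14.87 with MyoD + Dox. The 2 non-transduced arrays differed 53.3-fold, and the other 5 values fell within a far smaller range. Both MyoD + Dox arrays were below both uninduced arrays, by 0.92 on the log2 scale (1.89-fold, standard error 1.70, unadjusted p = 0.611, limma adjusted p = 0.888, n = 2). That error is shared by all 6 arrays and includes the gap between the non-transduced arrays. Fitted on the 4 arrays of the comparison alone, the difference had an unadjusted p of 0.00656 and a limma adjusted p of 0.129. In bulk RNA such as this, fewer cells that express a gene and less of its RNA per cell cannot be told apart.

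Comparisons of Bmp4 with non-transduced cells rested on which non-transduced array was kept. The difference of MyoD + Dox from non-transduced cells was 1.87 on the log2 scale (standard error 1.70, limma adjusted p = 0.99998), 4.74 without the first non-transduced array (limma adjusted p = 0.00841) and -0.99 without the second (limma adjusted p = 0.470). The difference of uninduced from non-transduced cells was 2.79 (standard error 1.70, limma adjusted p = 0.639), 5.66 without the first and -0.076 without the second. No direction is therefore given for Bmp4 in these comparisons.

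The Bmp4 promoter is shown beside that of Mstn as the other window with 3 or more E-boxes among the matched genes. It lies at chr14:46390670-46390919 on the minus strand (RefSeq, GRCm38.p6), and its 3 E-boxes start 188, 177 and 123 bases before the gene's start.
Bmp4: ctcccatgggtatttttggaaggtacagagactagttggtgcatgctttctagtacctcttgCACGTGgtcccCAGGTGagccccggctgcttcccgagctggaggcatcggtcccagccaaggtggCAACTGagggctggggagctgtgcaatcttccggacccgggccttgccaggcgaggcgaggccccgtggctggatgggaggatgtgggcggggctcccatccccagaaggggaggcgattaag
The middle one has the form CAGGTG, which is itself an instance of CANNTG and was found in 17.2% of all windows of that length on the gene's strand or the other. The form CAGCTG, found in 13.0% of windows, was present in the Gdf11 promoter, 153 bases before the start. Single E-boxes of other forms stood 51 bases before the start of Tgfb2 and 238 bases before that of 1 of 2 Tgfbr1 promoters. The windows of Inhba, Tgfb1 and Acvr2b held no CANNTG.

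Fst (Entrez 14313), the gene of follistatin, the secreted protein that binds activins and myostatin and keeps them from their receptors, had its highest values on the second non-transduced array and in MyoD + Dox cells. The log2 signal of Fst was 10.08 and 12.26 in non-transduced, 10.43 and 11.57 in uninduced cells and 11.64 and 12.11 with MyoD + Dox. Both MyoD + Dox arrays lay above both uninduced arrays, the lower of them by a narrow margin, and the lowest of the 6 values was on the first non-transduced array. The second uninduced array, which had the lowest mean of muscle markers, was close to the MyoD + Dox arrays in Fst. The mean was 1.84-fold higher in MyoD + Dox than in uninduced cells, a log2 difference of 0.88 (standard error 0.76, limma adjusted p = 0.758, n = 2). Over single arrays left out it ran from 0.31 to 1.45. Against non-transduced cells, whose arrays differed by 2.18 on the log2 scale, the difference was 0.71 in MyoD + Dox and -0.17 in uninduced cells (standard error 0.76 each), and both turned sign when a single array was left out.

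The 3 genes with the profile most like that of Fst were Dst, which encodes a cytoskeletal linker protein, Fam120c and Brwd1. Likeness was the mean absolute difference over the 6 arrays after each profile was centred on its own mean, and 9599 genes were searched. It was 0.24 log2 units for Dst and 0.25 for each of the other two. For Bmp4, which was added to this search after its values were seen, the nearest profiles were those of Eps8 at 0.13, Hs3st1 at 0.15 and Grem1 at 0.22. On the second non-transduced array Eps8 read 6.53, Hs3st1 5.50 and Grem1 7.23, against 12.71, 10.84 and 12.57 on the first. These matches, like the range of Bmp4, thus rested mainly on the second of those arrays. Grem1 encodes gremlin, a secreted antagonist that binds BMP4. No profile was compared for Mstn, which was below background.

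Acvr2b (Entrez 11481) encodes a type II receptor through which myostatin and activins act. Its log2 signal was 3.58 and 3.58 in non-transduced, 3.64 and 3.80 in uninduced cells and 3.26 and 3.80 with MyoD + Dox. None of the 6 values was above background, and no difference is given. Acvr2a, the gene of another type II activin receptor, was above background on all 6 arrays and was named after its values were seen. It read 9.82 and 9.93 in non-transduced, 10.13 and 10.24 in uninduced cells and 10.27 and 10.19 with MyoD + Dox.

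Tgfbr1 (Entrez 21812) encodes the type I receptor kinase of the TGF-betas, which is also used by myostatin and Gdf11. Tgfbr1 signals on the log2 scale were 9.45 and 9.91 in non-transduced, 9.93 and 9.94 in uninduced cells and 10.28 and 10.60 with MyoD + Dox. The 3 groups did not overlap, with non-transduced cells lowest and MyoD + Dox cells highest, although the gap between the second non-transduced and the first uninduced array was narrow. MyoD + Dox cells were 1.43-fold above uninduced cells, a log2 difference of 0.51 (standard error 0.25, unadjusted p = 0.084, limma adjusted p = 0.680, n = 2). They were 0.76 above non-transduced cells (standard error 0.25, unadjusted p = 0.022, limma adjusted p = 0.99998, n = 2). Over single arrays left out, the former difference ran from 0.35 to 0.67 and the latter from 0.53 to 0.997. Tgfbr1 kept its sign in all 17 alternative settings of each of the 3 comparisons. With groups that do not overlap, leaving out 1 array could not turn it, so those settings are no test of the sign. Most other settings leave the difference itself unchanged and are no test of it either. Only quantile and median normalization altered it, to 0.46 and 0.54 against uninduced cells.

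**Figure D2:**
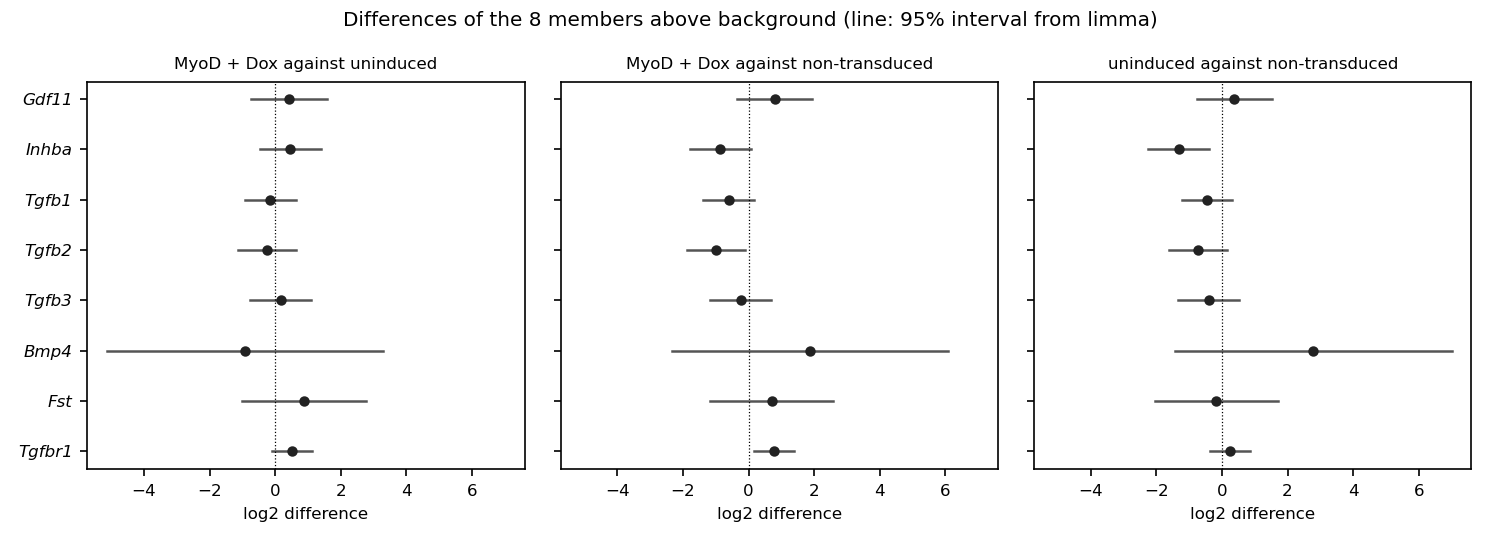
Log2 differences between groups of the 8 genes above background are plotted for the 3 comparisons as points with limma's 95% intervals. Of the 24 intervals, those of Tgfb2 and Tgfbr1 in MyoD + Dox against non-transduced cells and of Inhba in uninduced against non-transduced cells leave out 0, without adjustment for the number of genes tested, and that of Bmp4 is widest.

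After adjustment over all 19505 genes, 0 of the 10 genes passed in MyoD + Dox against uninduced cells, where 0% of all genes passed limma's test. At an unadjusted limma p under 0.05, 0 of 10 were higher and 0 of 10 lower, against 4.22% and 3.19% of all genes (1446 genes in both directions). The per-gene test named in the methods called 0 genes after Benjamini-Hochberg adjustment. Groups did not overlap for 4 genes that were higher (Mstn, Gdf11, Fst and Tgfbr1) and 2 that were lower (Tgfb2 and Bmp4), beside 23.8% and 24.8% of all genes, and Mstn was below background throughout. The median difference of the 10 genes was 0.29, and that of all genes was -0.01.

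Against non-transduced cells, 0 of the 10 genes passed limma's adjusted test in MyoD + Dox cells, as did 0% of all genes. At an unadjusted p under 0.05, 1 of 10 was higher (Tgfbr1) and 1 of 10 lower (Tgfb2), against 1.6% and 1.34% of all genes (573 genes). The per-gene test named in the methods called 1 gene after adjustment, which was not one of the 10. Groups did not overlap for 1 gene that was higher (Tgfbr1) and 3 that were lower (Inhba, Tgfb1 and Tgfb2), against 13.9% and 14.3% of all genes. The median difference was 0.06 for the 10 genes and 0.00 for all genes.

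In uninduced against non-transduced cells, 0 of 10 passed limma's adjusted test, where 0% of all genes did, and the methods' per-gene test called 0 genes after adjustment. At an unadjusted p under 0.05, 0 of 10 were higher and 1 of 10, Inhba, was lower, against 3.11% and 3.12% of all genes (1214 genes). Groups did not overlap for 2 genes that were higher (Acvr2b, below background, and Tgfbr1) and for 4 that were lower (Mstn, below background, Inhba, Tgfb1 and Tgfb2), where 19.2% of all genes were higher without overlap and 19.2% lower. The median difference was -0.23 for the 10 genes and 0.00 for all genes. The 3 comparisons share arrays pairwise, so their counts are not independent of each other.

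Other genes of the pathway were taken from 6 lists of 93 genes, of which 89 were measured, 54 were above background on at least 1 array and 44 on all 6. In MyoD + Dox against uninduced cells, 6 of the 89 were higher and 4 were lower at a limma p under 0.05 without adjustment, beside 4.22% and 3.19% of all genes. None of the 89 passed the adjusted test, and the median difference was -0.08. Against non-transduced cells the counts were 3 higher and 3 lower for MyoD + Dox, beside 1.6% and 1.34% of all genes, and 6 higher and 2 lower for uninduced cells, beside 3.11% and 3.12% of all genes.

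Among the ligands, 0 of 14 other BMP genes were above background on any array, so that Bmp4 was the one BMP of the lists with a measured signal, and Bmp3, with the highest mean of that list, read between 4.63 and 5.27. Of 10 other TGF-beta, activin and GDF ligands, 7 were not above background on any array. Inhbb, the subunit of activin B, was above it on all 6, at 6.72 and 6.47 in non-transduced, 7.19 and 6.65 in uninduced cells and 6.73 and 6.59 with MyoD + Dox, with overlapping groups. No ligand of either list reached an unadjusted p under 0.05 in MyoD + Dox against uninduced cells.

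Of 17 receptors and coreceptors, 2 were higher and 1 lower in MyoD + Dox than in uninduced cells at an unadjusted p under 0.05, where 4.22% and 3.19% of all genes were. Hjv, the gene of hemojuvelin, a BMP coreceptor of muscle and liver, read 9.04 and 12.50 in non-transduced, 9.20 and 6.19 in uninduced cells and 11.20 and 11.89 with MyoD + Dox, a difference of 3.86 (standard error 1.38, limma adjusted p = 0.670). Bmpr2, the type II BMP receptor, read 12.24 and 12.77 in uninduced cells and 13.05 and 13.40 with MyoD + Dox, a difference of 0.72 (standard error 0.29, limma adjusted p = 0.670). Rgma, a BMP coreceptor of the same family as hemojuvelin, read 8.03 and 8.42 in uninduced cells and 7.14 and 7.29 with MyoD + Dox, a difference of -1.01 (standard error 0.22, limma adjusted p = 0.670). Rgmb, the third gene of this coreceptor family and named after its values were seen, read 9.19 and 8.88 in non-transduced, 9.47 and 9.24 in uninduced cells and 9.65 and 10.02 with MyoD + Dox, a difference of 0.48 from uninduced cells (standard error 0.24, limma adjusted p = 0.685). In this family Hjv and Rgmb thus lay higher and Rgma lower on both MyoD + Dox arrays than on both uninduced arrays. Tgfbr2, the type II receptor of the TGF-betas, had overlapping groups, with 13.09 and 13.20 in uninduced cells and 12.77 and 13.15 with MyoD + Dox.

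Of 18 extracellular inhibitors and latency genes, 1 was higher and 2 were lower at that threshold (4.22% and 3.19% of all genes). Twsg1, which encodes a secreted BMP-binding protein, read 12.56 and 12.61 in uninduced cells and 11.69 and 11.16 with MyoD + Dox, a difference of -1.16 (standard error 0.44, limma adjusted p = 0.670). Ltbp3, which encodes a binding protein of latent TGF-beta, read 11.42 and 11.68 in uninduced cells and 11.09 and 10.85 with MyoD + Dox, a difference of -0.58 (standard error 0.22, limma adjusted p = 0.670). Both also lay above non-transduced cells in uninduced cells, by 1.38 and 0.62, and differed from them by 0.22 and 0.04 in MyoD + Dox cells. Nog, the gene of the BMP antagonist noggin, was the one that was higher, but was not above background on any array. Thbs1, an activator of latent TGF-beta and the gene of highest mean signal in this list, read 17.19 and 17.53 in uninduced cells and 17.42 and 18.02 with MyoD + Dox.

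None of 15 Smads and Smad regulators reached an unadjusted p under 0.05 between MyoD + Dox and uninduced cells. Smad3, which carries the signal of the myostatin branch, read 11.83 and 11.40 in non-transduced, 11.67 and 11.53 in uninduced cells and 11.77 and 12.10 with MyoD + Dox. Smad4, the shared partner of both branches, read between 12.30 and 12.65 on all 6 arrays. Of the inhibitory Smads, Smad7 was not above background on any of them, and Smad6 was above it on 5. Smad6 read 7.25 and 5.66 in non-transduced, 7.36 and 7.86 in uninduced cells and 6.74 and 6.24 with MyoD + Dox, a difference of -1.12 from uninduced cells without overlap (standard error 0.54, limma adjusted p = 0.680). These 4 were named after their values were seen. Fkbp1a, which binds type I receptors and had the highest mean of the list, read between 13.20 and 13.60.

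Of 15 transcriptional targets, 3 were higher and 1 lower in MyoD + Dox than in uninduced cells at an unadjusted p under 0.05 (4.22% and 3.19% of all genes). Pmepa1, a target that dampens TGF-beta signalling, read 13.62 and 15.05 in non-transduced, 13.12 and 11.59 in uninduced cells and 14.23 and 14.22 with MyoD + Dox, a difference of 1.87 from uninduced cells (standard error 0.64, limma adjusted p = 0.670). Cdkn1a, the cell cycle inhibitor p21, which MyoD is also known to activate, read 17.31 and 18.37 in non-transduced, 17.39 and 16.92 in uninduced cells and 18.16 and 18.67 with MyoD + Dox, a difference of 1.26 from uninduced cells (standard error 0.41, limma adjusted p = 0.670). Its MyoD + Dox and non-transduced values overlapped, with a difference of 0.58. For Pmepa1 as for the muscle markers, the second of the non-transduced arrays was well above the first.

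Id1, a BMP target that blocks E-box binding by MyoD's partners, read 10.97 and 11.43 in non-transduced, 12.20 and 11.79 in uninduced cells and 12.60 and 12.87 with MyoD + Dox. Its 3 groups did not overlap, and MyoD + Dox cells were above uninduced cells by 0.74 (standard error 0.27, limma adjusted p = 0.670) and above non-transduced cells by 1.53 (standard error 0.27, unadjusted p = 0.0014, limma adjusted p = 0.99998). Id3, its relative and a BMP target as well, lay on the other side. It read 9.90 and 5.35 in non-transduced, 10.38 and 11.10 in uninduced cells and 8.99 and 9.52 with MyoD + Dox. Its difference from uninduced cells was -1.49 (standard error 1.38, limma adjusted p = 0.775). Id2 went with Id1, higher in MyoD + Dox than in uninduced cells by 0.38 without overlap (standard error 0.24, limma adjusted p = 0.701). Id4 was not above background on any array. Postn, the gene of the matrix protein periostin, read 13.09 and 12.91 in non-transduced, 12.36 and 12.53 in uninduced cells and 11.51 and 9.34 with MyoD + Dox. Its difference from uninduced cells was -2.02 (standard error 0.67, limma adjusted p = 0.670), and its 2 MyoD + Dox arrays were far apart. Fn1, the gene of fibronectin and the one of highest mean signal here, read 18.12 and 18.53 in uninduced cells and 17.99 and 17.61 with MyoD + Dox.

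Single arrays decided most of these unadjusted calls between MyoD + Dox and uninduced cells. Of the 9 genes above background that had an unadjusted p under 0.05, Rgma alone stayed under it with each of the 6 arrays left out in turn, with differences from -1.20 to -0.81. Leaving out the second uninduced array gave 2.35 for Hjv, 1.11 for Pmepa1, 1.02 for Cdkn1a, 0.53 for Id1, -0.44 for Ltbp3 and -1.14 for Twsg1, with unadjusted limma p values of 0.179, 0.148, 0.124, 0.169, 0.182 and 0.127. Leaving out the first uninduced array gave 0.45 for Bmpr2 and 5.36 for Hjv, with unadjusted limma p values of 0.229 and 0.018, and Twsg1 and Ltbp3 had 0.116 and 0.058. Without the second MyoD + Dox array the unadjusted p was above 0.05 for all of these but Rgma and Postn, and the difference of Postn was -0.93 (-3.11 without the first). Postn lost its call without either uninduced array, at an unadjusted limma p of 0.080 and 0.099.

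Bmp4 was not alone in the gap between the non-transduced arrays. Of the 89 other pathway genes, 7 differed at least 8-fold between those arrays, and they were picked out after their values were seen. Grem1 read 12.57 and 7.23 there, Tgfbr3, a coreceptor of TGF-beta, 11.05 and 6.01, and Dcn, the gene of decorin, a matrix proteoglycan that binds TGF-beta and myostatin, 17.31 and 7.15. Bmper, which encodes a BMP-binding protein, read 12.46 and 8.56, and Id3 read 9.90 and 5.35. In these 5 genes and Bmp4 the second array was the lower one, and on it Tgfbr3 and Id3 were not above background.

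The same 6 genes lay lower on both MyoD + Dox arrays than on both uninduced arrays, as did 24.8% of all genes. Dcn read 17.88 and 17.90 in uninduced cells and 15.23 and 9.46 with MyoD + Dox, so its 2 MyoD + Dox arrays were far apart. Grem1 read 12.30 and 12.70 in uninduced cells and 11.95 and 10.81 with MyoD + Dox, and Tgfbr3 read 10.98 and 11.67 against 10.21 and 8.62. None of these differences passed limma's test, with unadjusted p values of 0.161 for Dcn, 0.516 for Grem1 and 0.274 for Tgfbr3. The mean of the 15 muscle markers was highest on the second non-transduced array and on the MyoD + Dox arrays, where these genes were lowest, and its part in their values was not tested.

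Ccn2 and Hjv differed in the other direction. Ccn2, a target of TGF-beta that encodes connective tissue growth factor, read 8.73 and 14.37 in non-transduced cells and between 8.997 and 9.33 on the other 4 arrays. It was thus high on a single array, and unlike Hjv it did not separate MyoD + Dox from uninduced cells (difference 0.07, standard error 1.67). Of the 10 main genes, 3 of 10 differed at least 2-fold in the non-transduced pair, with Bmp4 and Gdf11 lower and Fst higher on the second array.

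**Figure D3:**
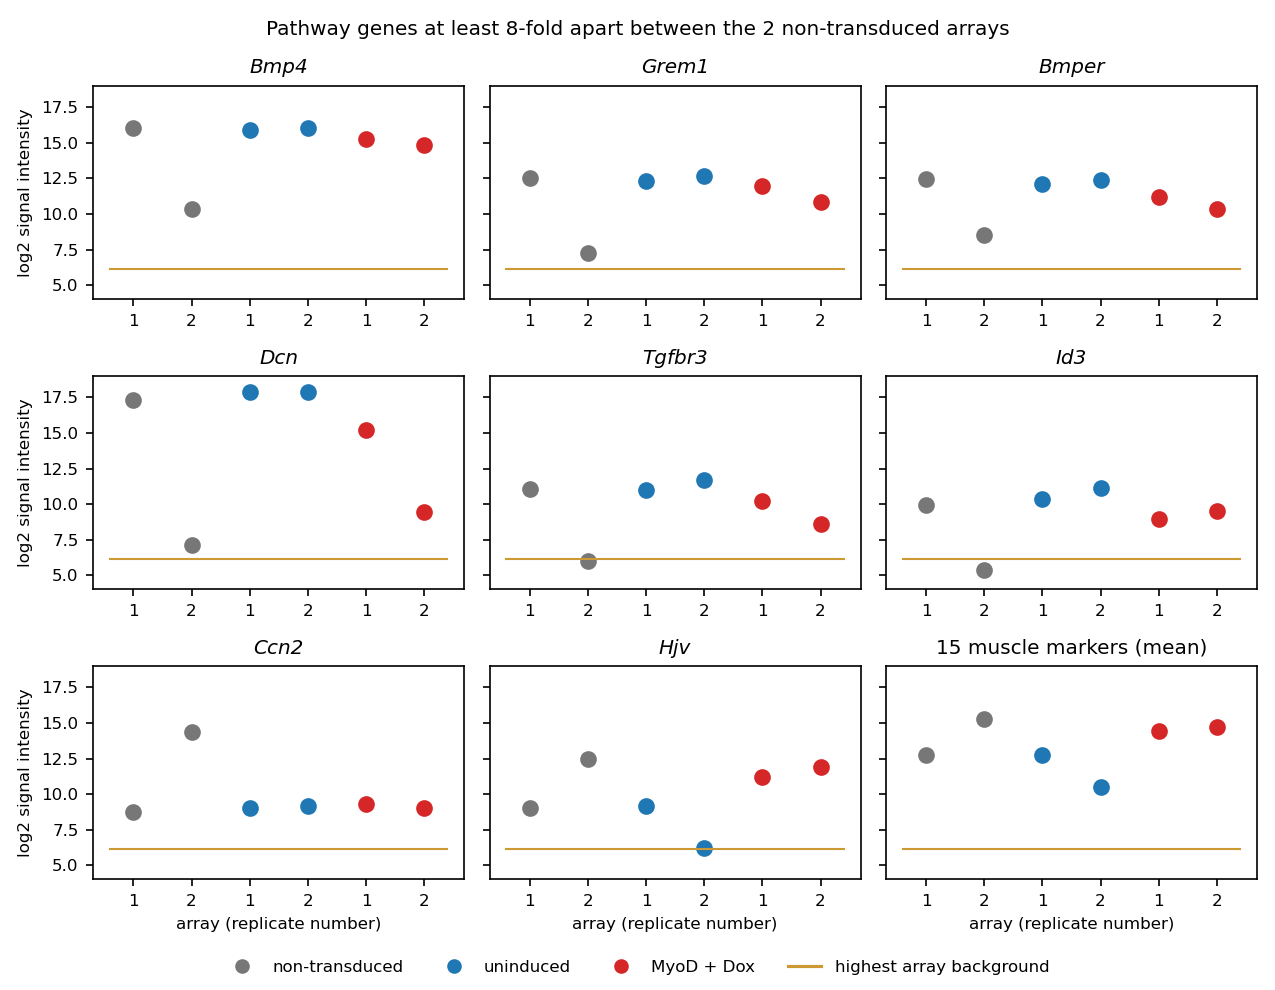
Log2 signal intensity is plotted by array for Bmp4, for the 7 other pathway genes at least 8-fold apart between the non-transduced arrays, and for the mean of 15 muscle markers, with colours for the groups and a line at the highest array background. Bmp4, Grem1, Bmper, Dcn, Tgfbr3 and Id3 were lowest on the second non-transduced array, where Ccn2 and the muscle markers were highest.

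**Figure D4:**
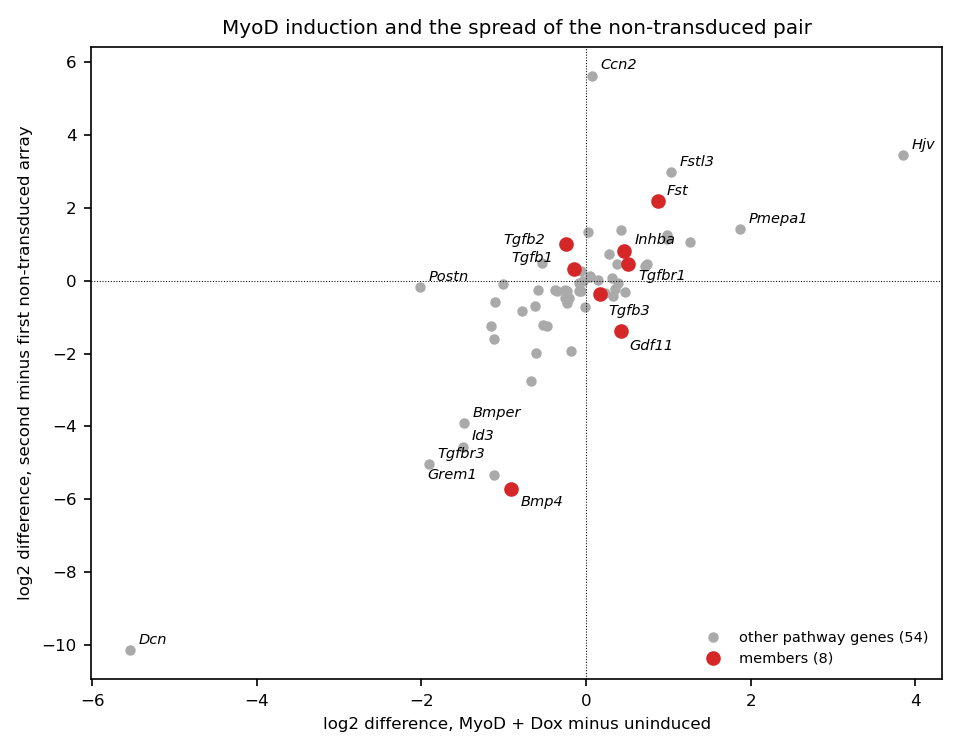
Each point is a gene above background on at least 1 array (8 main genes in red, 54 other pathway genes in grey), placed by its log2 difference between MyoD + Dox and uninduced cells (horizontal axis) and between the second and first non-transduced arrays (vertical axis). Dcn, Bmp4 and Grem1 lie at the lower left and Hjv and Fst at the upper right, while Ccn2 lies near 0 on the horizontal axis and Tgfb2 and Gdf11 lie on opposite sides of 0 on their 2 axes.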

How the data were processed

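Total RNA of differentiated C2C12 cells was hybridized to 6 Clariom S mouse arrays. Extraction was by Trizol in the labels and by the RNeasy kit in the paper's methods. The authors deposited signal intensity per probe set on a linear scale, normalized between arrays. Affymetrix Expression Console is listed, without a version, in the submitters' processing notes, but nothing says which tool wrote the table. The number of arrays limits the precision.

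Log2 of the deposited intensity was taken. Of 28846 probe sets, 19572 had 1 gene symbol in the platform annotation, 0 had several and 9274 had none. For the 55 genes with several probe sets the one of highest mean was kept, which left 19505 genes. Groups came from the labels. Two-sided tests used lmFit and eBayes of limma 3.58.1 in R 4.3.3. All 6 arrays entered a joint fit (3 residual degrees of freedom) with 3 comparisons. P-values were adjusted by the Benjamini-Hochberg method over every gene, and 0.05 was the threshold. No dim genes were left out. A gene was above background on an array if it exceeded the 90th percentile of 23 background probe sets. The steps were tested on simulated data.

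The 10 genes, the pathway lists and the markers were chosen with earlier results of these data known. Besides the 10 genes, named genes are Myod1, pathway genes at an unadjusted limma p under 0.05 in MyoD + Dox against uninduced cells (up to 4 a list), the gene of highest mean in each list and the 3 profiles nearest to Fst; others were named after their values were seen. Some genes of these lists were not analysed here. Alternative settings were a per-gene t-test, each array left out in turn, a replicate block, a fit of 4 arrays, quantile or median normalization, removal of the dimmest 40% of genes, signals raised to background, a trended robust eBayes and averaged probe sets. A crossed block was added after seeing the data. The table names no genome build, and only the RefSeq promoters have coordinates.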

Additional observations from a re-analysis of the deposited data

How the results depend on the processing

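With 2 arrays a group, 24 differences of the 8 genes above background were refitted in 17 settings. Apart from arrays left out, only quantile and median normalization could alter these differences, so the other settings are no test of their sign. Fits with an array left out assume that a lone array varies like the other groups. Of the 24 differences, 16 kept their sign throughout and 8 turned it, in each case when 1 array was left out, and the cause was not tested. Their ranges over single arrays left out were, for MyoD + Dox against uninduced cells, -0.48 to 0.18 in Tgfb1 and -0.22 to 0.56 in Tgfb3; against non-transduced cells -0.60 to 0.12 in Tgfb3, -0.99 to 4.74 in Bmp4 and -0.39 to 1.80 in Fst; and for uninduced against non-transduced cells -0.32 to 1.07 in Gdf11, -0.076 to 5.66 in Bmp4 and -1.26 to 0.92 in Fst. Of 15 other pathway differences 3 turned, with ranges of -0.53 to 0.0099 in Inhbb, -0.37 to 0.012 in Tgfbr2 and -0.15 to 0.036 in Fkbp1a. Genes passing the adjusted test numbered 0 in each comparison and, over single arrays left out, 0 to 15 in MyoD + Dox against uninduced, 0 to 169 in MyoD + Dox against non-transduced and 0 to 2191 in uninduced against non-transduced cells; 169 and 2191 came without the first non-transduced array. The 4 arrays of MyoD + Dox and uninduced cells alone gave 15 genes and 1 of the 10 at an unadjusted p, and the t-test after adjustment gave 1 gene against non-transduced cells. Of the 10 genes, the number at an unadjusted p ran from 0 to 1, 1 to 4 and 0 to 5 in the 3 comparisons over single arrays left out. For MyoD + Dox against non-transduced cells it was 1 with signals raised to background, 1 with 4 arrays and 0 by the t-test, and for uninduced against non-transduced cells 0 by the t-test.

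Nothing in the labels says whether equal replicate numbers mark paired samples. Deviations of same-numbered arrays correlated at -0.05 between MyoD + Dox and uninduced, 0.41 between MyoD + Dox and non-transduced and -0.34 between uninduced and non-transduced cells. With 2 arrays a group, these values cannot settle whether the samples are paired. With the replicate number as a block, 0 genes passed the adjusted test in each comparison, and 0, 3 and 1 of the 10 had an unadjusted p under 0.05. With the uninduced numbers crossed in the block, 0 genes passed and 0, 3 and 2 of the 10 did so unadjusted. The share of all genes at that unadjusted p was not counted in either block fit.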
